A study of Homo sapiens with 4 samples.

Results

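The WAVE regulatory complex is the protein assembly that switches on branched actin growth at cell edges and cell contacts, and its subunit genes were followed over 4 Affymetrix U133 Plus 2.0 arrays of T84, an epithelial line from a human colon cancer that polarises on filters. The genes taken were NCKAP1, CYFIP1, CYFIP2, ABI1, ABI2, WASF1, WASF2, WASF3 and BRK1. Every probe set annotated to a single one of these symbols was taken, which gave 14 of the 54675 probe sets of the array, for 7 of the 9 genes, out of 19775 genes with such a probe set. ABI2 and WASF1 had no probe set under a single symbol and were not analysed here. The complex was chosen by earlier results of the same arrays, in which an NCKAP1 probe set differed widely between miRNA-treated and control cells and the other NCKAP1 probe set did not. The NCKAP1 values are therefore a description of what was selected.

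Each group was a single array of cells grown on permeable filters and transfected with 15 pmol of oligonucleotide, and it is not stated if that is the total of a mix. The 4-miRNA cells received miR-338-3p and miR-451 with miR-33a and miR-210 added, and were collected after 5 days. The 2-miRNA cells received miR-338-3p and miR-451 and were also collected after 5 days. The control cells received a short RNA with minimal likeness to human miRNAs and were collected after 7 days or after 5 days. No group had a replicate, so there is no test across samples and no p-value, and each difference is one between 2 arrays. The day 5 array serves as the control of several comparisons, which are therefore not independent. The RNA came from whole cultures, in which fewer cells of a kind and less RNA per cell cannot be told apart. Values are signals scaled so that each array had a trimmed mean of 500, and a log2 difference is that of scaled signal plus 32. At least 2-fold apart means a log2 difference of at least 1 in size.

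The arrays did not arrive at a common brightness. As deposited, the miRNA arrays had trimmed means of 150 (4 miRNAs) and 147.4 (2 miRNAs), against 74.3 (day 7) and 76.6 (day 5) for the controls, so brightness and miRNA treatment cannot be told apart. The ratio of 3′ to 5′ signal of ACTB, a measure of RNA and labelling quality, was 1.97 and 2.28 on the 4-miRNA and 2-miRNA arrays, against 2.33 and 2.11 on the day 7 and day 5 controls, and did not separate the kinds. The same ratio of GAPDH was 0.95 and 0.96 on the miRNA arrays, against 0.98 and 1.02 on the controls. By GAPDH both miRNA arrays were thus slightly below both controls. After scaling, GAPDH was lower than in the day 5 control by each of its 6 probe sets, with log2 differences between −1.26 and −0.81 with 4 miRNAs and between −1.17 and −0.74 with 2. By the median over its probe sets GAPDH was past 2-fold lower with 4 miRNAs. ACTB, also with 6 probe sets, lay between −0.75 and −0.51 with 4 miRNAs and between −0.90 and −0.62 with 2. The 3′ probe set of GAPDH was at 75.5% and 75.1% of the highest signal of the 4-miRNA and 2-miRNA arrays, against 79.4% and 69.1% for the day 7 and day 5 controls. The part of brightness and of signals near the top of the scale in these differences was not tested. All 11 epithelial and intestinal markers, CDX2 and CDH1 among them, were at or above the median probe set on each array. Of 10 markers of blood, vessel and connective tissue cells, 3 were at or above it on the 4-miRNA array, 4 with 2 miRNAs, 4 on day 7 and 3 on day 5 of the control, and their summed signal was 706, 772, 993 and 865 in that order.

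The complex is built from a WASF (WAVE) protein, a CYFIP protein, NCKAP1, an ABI protein and the small subunit BRK1. CYFIP and NCKAP1 form the large platform that holds the WASF protein inactive. Binding of the active GTPase RAC1 to CYFIP frees the end of the WASF protein that binds actin and the Arp2/3 complex, and Arp2/3 then starts a new filament on the side of an old one. In epithelial sheets such networks push the cell edge forward over the support and hold cell contacts together.

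The treatment is defined by short RNAs, and the mature sequences of 3 of the 4, all but miR-451, are shown because the seed, bases 2 to 8 from the 5′ end (capitals), sets which transcripts a miRNA pairs with. They are RefSeq entries of build GRCh38.p14, 5′ to 3′. For miR-210 and miR-33a the labels give no arm, and the entries printed are the 3p arm of miR-210 and the 5p arm of miR-33a.
hsa-miR-338-3p: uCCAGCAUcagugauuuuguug
hsa-miR-210-3p: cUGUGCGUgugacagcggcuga
hsa-miR-33a-5p: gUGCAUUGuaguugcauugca
These lie at chr17:81125887-81125908 on the minus strand, chr11:568112-568133 on the minus strand and chr22:41900949-41900969 on the plus strand. The 3 seeds differ from each other, so no pair of these 3 miRNAs shares one.

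NCKAP1, the platform subunit that binds CYFIP, was far higher on both miRNA arrays by the brighter of its probe sets. Probe set 207738_s_at of NCKAP1 had a scaled signal of 8023 with 4 miRNAs and 7576 with 2, against 735.2 in the day 7 control and 646.3 in the day 5 control. The miRNA arrays were close to each other and so were the controls, with a wide gap between the kinds. The log2 difference from the day 5 control was 3.57 with 4 miRNAs and 3.49 with 2, a signal ratio of 12.41 and 11.72. From the highest of 22609 expressed probe sets these differences ranked 11 and 12.

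The other NCKAP1 probe set, 217465_at, showed no such gap. Its signal was 165 with 4 miRNAs and 251.5 with 2, against 158.7 on day 7 and 166 on day 5 of the control. Here the 2-miRNA array was the highest and the other 3 arrays lay together. The log2 difference from the day 5 control was −0.01 with 4 miRNAs and 0.52 with 2, within 2-fold in both. Both NCKAP1 probe sets were above the array median on all 4 arrays, but 217465_at was dim. It lay between the 60.7 and 68.6 percentile of the probe sets of an array, and 207738_s_at between 80.6 and 97.8. As deposited, before any scaling, 207738_s_at of NCKAP1 read 2407 and 2233 on the 4-miRNA and 2-miRNA arrays, against 109.3 and 99.0 on the day 7 and day 5 controls, and 217465_at read 49.5 and 74.1, against 23.6 and 25.4.

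**Figure D1:**
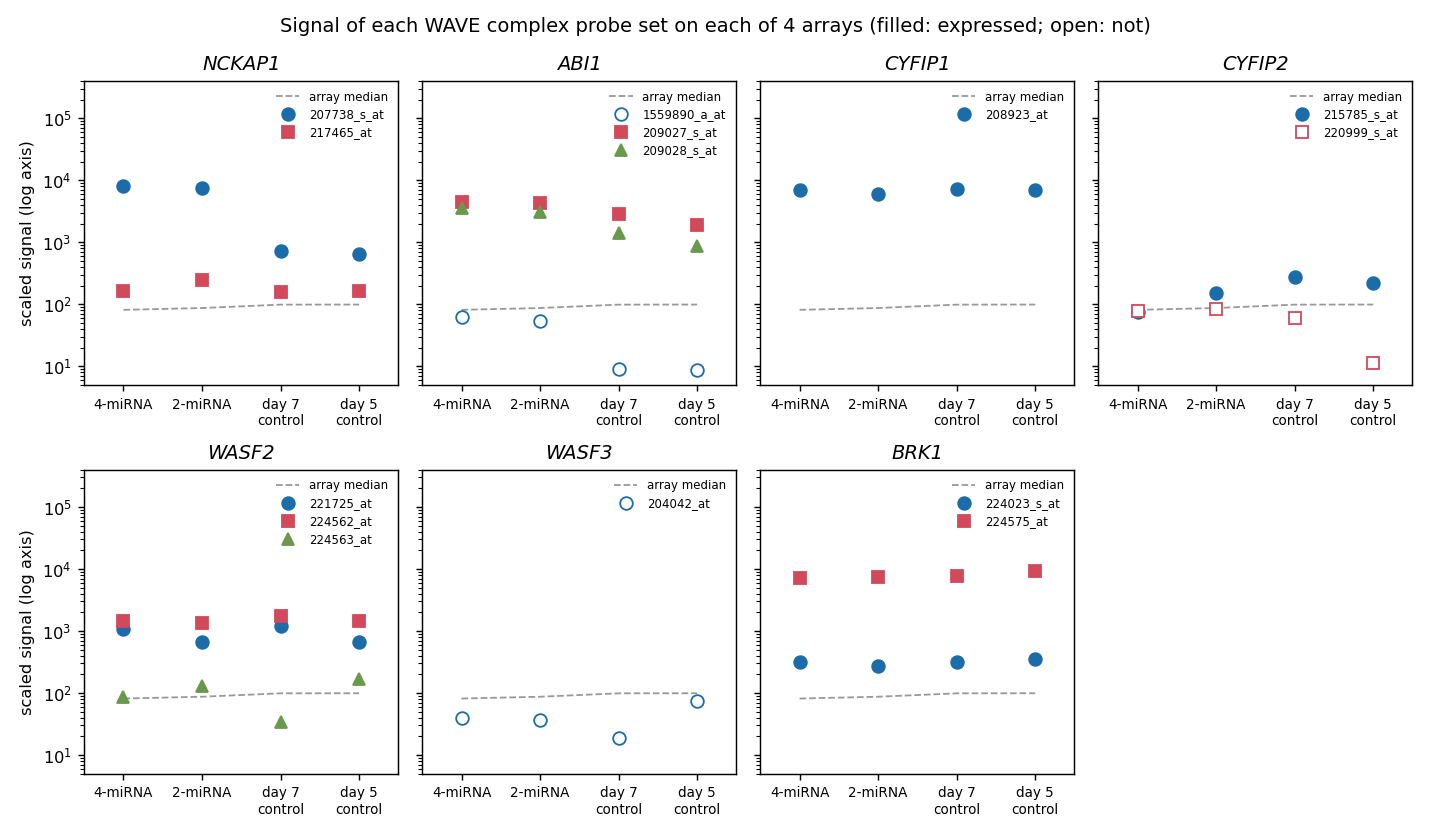
Scaled signal (log axis) of every WAVE complex probe set for cells with 4 miRNAs, with 2 miRNAs and for the controls of day 7 and day 5, 1 array each; filled symbols passed the filter on dim probe sets, open ones did not, and the dashed line is the array median. NCKAP1 207738_s_at stands at 8023 and 7576 on the miRNA arrays, against 735.2 and 646.3 on the controls, while CYFIP1 and BRK1 are nearly level.

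ABI1, the adaptor that ties the WASF protein to the platform and is a substrate of the ABL kinases, was higher on the miRNA arrays by both of its expressed probe sets. Probe set 209028_s_at of ABI1 had 3584 with 4 miRNAs and 3116 with 2, against 1427 on day 7 and 881.8 on day 5 of the control. Probe set 209027_s_at of ABI1 had 4415 and 4346 with miRNAs, against 2866 and 1882 in the controls. For both, each miRNA array was above each control, and the day 7 control was above the day 5 control.

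Against the day 5 control the log2 differences of ABI1 were 1.98 and 1.22 with 4 miRNAs, and 1.78 and 1.19 with 2. Against the day 7 control they were smaller, 1.31 and 0.62 with 4 miRNAs and 1.11 and 0.60 with 2, so 209027_s_at was no longer 2-fold apart. The day 7 control itself exceeded the day 5 control by 0.67 and 0.60. The remaining ABI1 probe set, 1559890_a_at, had 62.6 and 53.2 on the miRNA arrays, against 9.1 and 8.7 on the controls. It was under the median on all 4 arrays and did not pass the filter, so no fold is given.

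Since 1 of the 2 expressed probe sets of NCKAP1 and both of ABI1 were at least 2-fold above the day 5 control on both miRNA arrays, the promoters of these genes are shown beside that of BRK1, which stayed within 2-fold. Each is 250 bases before to 50 after the gene's start in RefSeq, build GRCh38.p14, read 5′ to 3′ on the gene's strand. Capitals mark matches, on either strand, to any of 6 motifs. The GC box was searched as GGGCGG. The CCAAT box was searched as those letters, and the TATA box as TATAAA. The E-box was searched as CACGTG. The core of the hypoxia element was searched as ACGTG, which also lies inside the E-box. The core bound by ETS factors was searched as CCGGAA.
NCKAP1, chr2:183038408-183038707, minus strand: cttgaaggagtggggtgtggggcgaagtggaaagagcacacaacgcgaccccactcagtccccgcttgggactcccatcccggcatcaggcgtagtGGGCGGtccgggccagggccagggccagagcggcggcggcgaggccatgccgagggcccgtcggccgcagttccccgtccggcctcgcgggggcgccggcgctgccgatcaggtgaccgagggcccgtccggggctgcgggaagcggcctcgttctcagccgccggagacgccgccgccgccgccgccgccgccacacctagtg
ABI1, chr10:26860909-26861208, minus strand: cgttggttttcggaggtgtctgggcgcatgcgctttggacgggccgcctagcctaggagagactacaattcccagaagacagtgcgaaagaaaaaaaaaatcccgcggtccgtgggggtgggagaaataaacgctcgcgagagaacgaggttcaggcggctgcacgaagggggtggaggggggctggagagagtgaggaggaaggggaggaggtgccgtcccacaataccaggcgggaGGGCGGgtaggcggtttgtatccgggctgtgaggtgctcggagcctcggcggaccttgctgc
BRK1, chr3:10115425-10115724, plus strand: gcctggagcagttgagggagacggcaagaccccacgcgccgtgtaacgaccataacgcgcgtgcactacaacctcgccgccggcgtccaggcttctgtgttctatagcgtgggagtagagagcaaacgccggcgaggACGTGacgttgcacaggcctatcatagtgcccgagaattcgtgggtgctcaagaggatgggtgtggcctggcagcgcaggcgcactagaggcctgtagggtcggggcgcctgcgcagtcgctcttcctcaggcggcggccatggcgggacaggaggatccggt
The NCKAP1 and ABI1 windows each hold 1 GC box and none of the other motifs, and the BRK1 window holds 1 hypoxia core alone. Of the 35116 promoters in the table, a GC box is found in 45.0%, the hypoxia core in 21.4%, a CCAAT box in 34.6%, a TATA box in 11.5%, the E-box in 7.26% and the ETS core in 17.2%. The G and C content was 75.3% in the NCKAP1 window, 62.0% in ABI1 and 64.7% in BRK1, against a median of 58.7% over all of them.

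The CYFIP subunits, which bind active RAC1, did not share the direction of NCKAP1. CYFIP1 had a signal of 6986 with 4 miRNAs and 5964 with 2, against 7163 on day 7 and 6887 on day 5 of the control. The 2-miRNA array was the lowest, and the log2 differences from the day 5 control were 0.02 with 4 miRNAs and −0.21 with 2. CYFIP1 thus stayed within 2-fold on its single probe set.

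CYFIP2, the close relative of CYFIP1, was dim. Its expressed probe set 215785_s_at had 74.4 with 4 miRNAs and 152.1 with 2, against 281.1 on day 7 and 219.9 on day 5 of the control. Both miRNA arrays were below both controls, and the 4-miRNA value was under the median of its array, 81.6. The log2 difference from the day 5 control was −1.24 with 4 miRNAs and −0.45 with 2. The other CYFIP2 probe set, 220999_s_at, ran the opposite way at signals under the median on every array, with 78.1 and 85.2 on the miRNA arrays, against 61.2 and 11.3 on the controls.

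WASF2, the WAVE protein that drives protrusion in most cell types outside the nervous system, stayed near the control by its brightest probe set. Probe set 224562_at of WASF2 had 1429 with 4 miRNAs and 1346 with 2, against 1740 on day 7 and 1434 on day 5 of the control, and the day 7 control was the highest of a narrow range. Probe set 221725_at of WASF2 had 1089 and 657.2 with 4 and 2 miRNAs, against 1215 and 674.4 in the day 7 and day 5 controls. Here the 4-miRNA array paired with the day 7 control and the 2-miRNA array with the day 5 control, with log2 differences from the day 5 control of 0.67 and −0.04. The remaining WASF2 probe set, 224563_at, was dim, with 87.8 and 130.9 on the miRNA arrays, against 34.2 on day 7 and 168.8 on day 5 of the control. Its direction depended on the control, since the 2-miRNA array was lower than the day 5 control by −0.30 on the log2 scale and higher than the day 7 control by 1.30. The same held for the 4-miRNA array, at −0.74 and 0.86.

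WASF3, a WAVE protein studied mainly in neurons and in invasive cancer cells, had a single probe set that was under the median on all 4 arrays. Its signals were 39.1 and 36.3 on the 4-miRNA and 2-miRNA arrays, against 19.1 and 73.8 on the day 7 and day 5 controls. WASF3 did not pass the filter, and no fold is given.

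BRK1, the small subunit that stabilises the complex, was level. Probe set 224575_at of BRK1 had 7243 with 4 miRNAs and 7545 with 2, against 7853 on day 7 and 9472 on day 5 of the control, so the day 5 control was the highest. Probe set 224023_s_at of BRK1 had 317.7 and 270.8 on the miRNA arrays, against 320.3 and 355.5 on the controls. The log2 differences from the day 5 control were −0.39 and −0.15 with 4 miRNAs, and −0.33 and −0.36 with 2. Both BRK1 probe sets were lower than the day 5 control on each miRNA array, and within 2-fold of it.

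**Figure D2:**
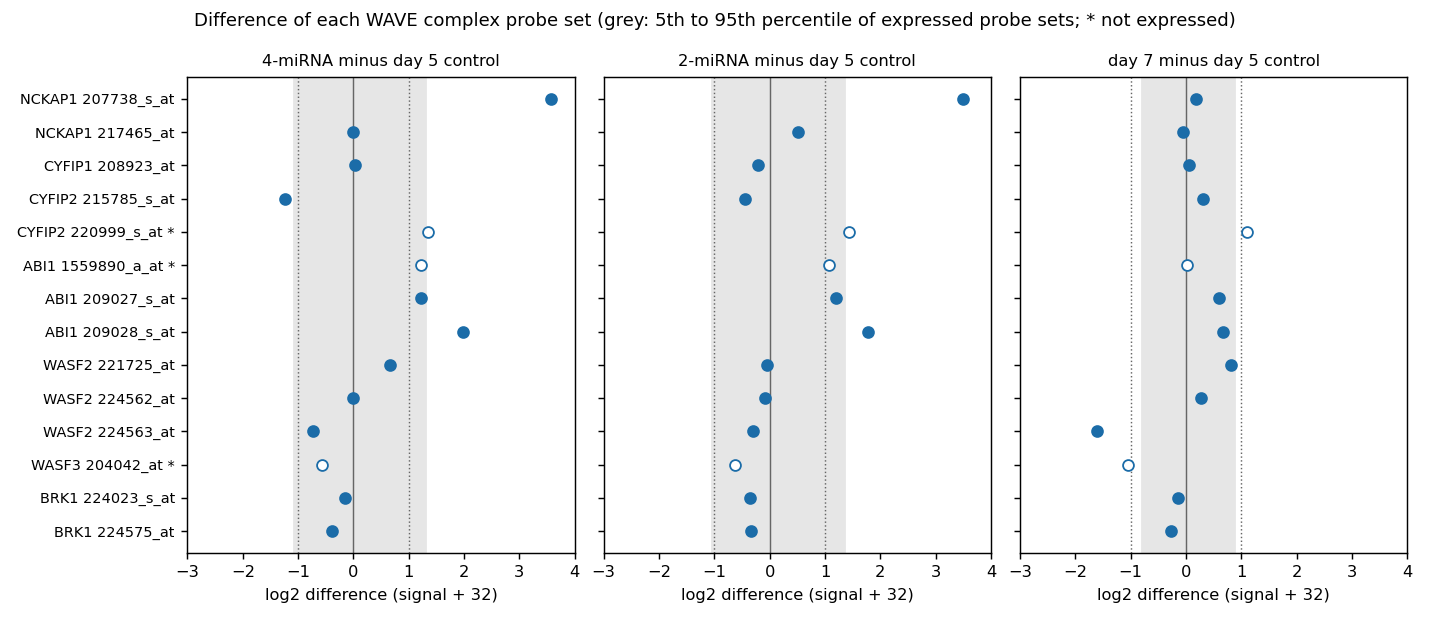
Log2 difference (scaled signal plus 32) of each WAVE complex probe set for 4-miRNA minus day 5 control, 2-miRNA minus day 5 control and day 7 minus day 5 control; the grey band runs from the 5th to the 95th percentile of 22609 expressed probe sets, dotted lines mark 2-fold and open symbols are probe sets that failed the filter. Of the filled symbols, NCKAP1 207738_s_at (3.57 and 3.49) and ABI1 209028_s_at (1.98 and 1.78) lie beyond the band in the first 2 panels. CYFIP2 215785_s_at (−1.24) lies beyond it in the first panel, and WASF2 224563_at (−1.60) in the last. Open symbols of CYFIP2 (each panel) and WASF3 (last panel) lie beyond it too.

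Of the 14 probe sets, 11 passed the filter on dim signals, for 6 genes. Against the day 5 control, 3 of the 11 were at least 2-fold higher with 4 miRNAs, where 8.65% of all expressed probe sets were, and 3 with 2 miRNAs, where 9.24% were. They were 1 NCKAP1 and 2 ABI1 probe sets in both comparisons. At least 2-fold lower were 1 with 4 miRNAs, from CYFIP2 (6.21% of all), and 0 with 2 miRNAs (5.89% of all). These contrasts were those in which the complex was picked out, so nothing is read from the counts. The median over the 11 was 0.00 with 4 miRNAs and −0.09 with 2, against −0.11 and −0.10 over all expressed probe sets. With no filter, 5 of 14 were at least 2-fold higher in each comparison, the additional ones being 220999_s_at of CYFIP2 and 1559890_a_at of ABI1. With a stricter filter that kept 8 member probe sets, the CYFIP2 probe set, the dim WASF2 probe set and NCKAP1 217465_at dropped out. Then 0 were lower, and NCKAP1 was left with 207738_s_at alone, so its probe sets could not be compared.

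The day 7 control, as the other array without miRNAs, gave a second comparison. Relative to it, 2 of the 11 member probe sets were at least 2-fold higher with 4 miRNAs (6.49% of all), 207738_s_at of NCKAP1 at 3.39 and 209028_s_at of ABI1 at 1.31. With 2 miRNAs 3 were (7.26% of all), the same NCKAP1 and ABI1 probe sets at 3.31 and 1.11 and the dim WASF2 probe set. CYFIP2 at −1.56 was the 1 probe set at least 2-fold lower with 4 miRNAs (4.29% of all), and 0 were with 2 miRNAs (3.98% of all). These contrasts used the same miRNA arrays, and both treatment and day of collection differed. NCKAP1 was selected for its difference between miRNA-treated and control cells, so nothing is read from these counts either.

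Between the 4-miRNA and the 2-miRNA array, 0 of the 11 were at least 2-fold higher (1.07% of all) or lower (1.49% of all), and with shares this low over all probe sets nothing is read from the counts. The largest differences were CYFIP2 215785_s_at at −0.79, WASF2 221725_at at 0.70 and NCKAP1 217465_at at −0.53. NCKAP1 207738_s_at differed by 0.08 and the ABI1 probe sets by 0.20 and 0.02.

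Over the 2 further days on the filter, the complex in control cells differed most in WASF2 and ABI1. On day 7, 0 of the 11 were at least 2-fold higher than on day 5 (3.83% of all) and 1 was lower (2.92% of all), WASF2 224563_at at −1.60, whose day 7 signal of 34.2 was under the array median. The brighter WASF2 probe sets were on the other side of 0, at 0.82 for 221725_at and 0.27 for 224562_at. ABI1 was higher by 0.67 and 0.60 by its pair of expressed probe sets, and NCKAP1 207738_s_at by 0.18. With the stricter filter the dim WASF2 probe set dropped out.

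How far the NCKAP1 probe sets disagreed was set against all 5896 genes with several expressed probe sets. That disagreement was part of why the complex was chosen, so the shares describe a selected gene and test nothing. The gap between the highest and the lowest log2 difference of NCKAP1 was 3.58 with 4 miRNAs, where the median gene had 0.75. In all 20 of the 5896 genes (0.339%), NCKAP1 included, had a gap as large. With 2 miRNAs the gap of NCKAP1 was 2.97, against a median of 0.77, and 67 genes (1.14%), NCKAP1 included, reached it. Between the controls the same NCKAP1 probe sets differed by 0.23, against a median of 0.51. Under the stricter filter the dim 217465_at dropped out, which left no gap of NCKAP1 to measure.

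The partner subunits with several expressed probe sets were nearer the usual gap. For ABI1 it was 0.77 and 0.59 with 4 and 2 miRNAs, and 0.08 between the controls. For BRK1 it was 0.24 and 0.03, and 0.13. WASF2 had 1.41 with 4 miRNAs, 0.27 with 2 and 2.42 between the controls, and the last was reached by 63 genes (1.07%), WASF2 included. The wide gap of WASF2 between the controls rested on its dim probe set.

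**Figure D3:**
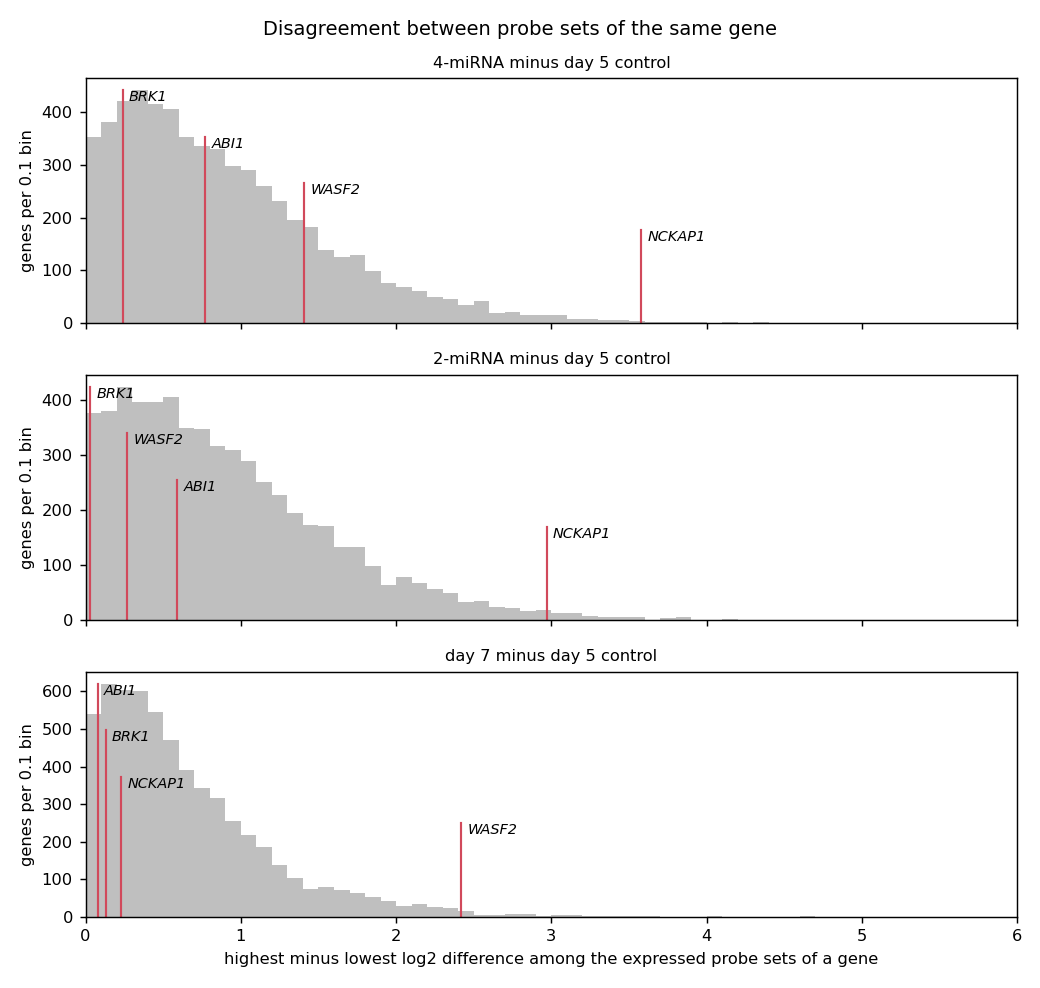
Number of genes (y axis, bins of 0.1) by the gap between the highest and lowest log2 difference among a gene's expressed probe sets (x axis), over 5896 genes, for 3 comparisons; red lines, whose height carries no value, mark the WAVE complex genes with several expressed probe sets. NCKAP1 is far to the right with 4 miRNAs (3.58) and 2 miRNAs (2.97) but at 0.23 between the controls, where WASF2 (2.42) is.

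The genes whose profile over the 4 arrays was most like that of NCKAP1 207738_s_at were RP2, FOLR1, PTP4A1, FUBP3 and RB1, by Euclidean distance of log2 values centred on each gene's mean, among 12263 other genes. RP2 (distance 0.32) had signals of 1744 and 1519 with 4 and 2 miRNAs, against 120 and 79 in the day 7 and day 5 controls. FOLR1, which encodes a folate receptor (distance 0.42), had 5584 and 4846, against 331 and 383. Both had a single expressed probe set.

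The other 3 had several, and in each the log2 differences of the probe sets lay far apart, with both signs for PTP4A1 and FUBP3. For PTP4A1, a phosphatase (distance 0.51), the log2 differences of 4 miRNAs from the day 5 control ran from −0.10 to 2.97. For FUBP3 (0.56) they ran from −0.77 to 3.08, and for RB1, the retinoblastoma protein gene (0.58), from 0.41 to 2.98. Of the partner subunits ABI1 was nearest, at a distance of 2.55 and rank 787, while CYFIP1, WASF2, BRK1 and CYFIP2 lay at 3.56, 3.62, 3.68 and 4.49.

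The other genes of the pathway, in lists chosen with earlier results of these arrays known, were each represented by the expressed probe set of highest mean. By that rule NCKAP1 and ABI1 were the WAVE genes at least 2-fold higher than the day 5 control, 2 of 6 in each miRNA comparison, where 8.03% of 12264 genes were with 4 miRNAs and 8.11% with 2. CYFIP2 was at least 2-fold lower with 4 miRNAs, where 6.70% of genes were, and with 2 miRNAs 0 were (6.37% of genes). Between the controls 0 WAVE genes were past 2-fold, where 3.35% of genes were higher on day 7 and 2.41% lower. NCKAP1 was part of why the complex was chosen and the list is short, so nothing is read from these counts.

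Of 18 expressed partners that bind or steer the WAVE complex, 2 were at least 2-fold higher in each miRNA comparison. Over all genes 8.03% were with 4 miRNAs and 8.11% with 2, and nothing is read from the count. RAPH1, lamellipodin, which recruits WAVE and Ena/VASP proteins to the cell edge, had 1997 and 1918 with 4 and 2 miRNAs, against 583.5 and 603.7 on day 7 and day 5 of the control, a log2 difference from the day 5 control of 1.67 and 1.62. Its 3 expressed probe sets ran from −0.49 to 1.67 with 4 miRNAs, so they too disagreed. ARF6, a membrane GTPase, was at 1.53 and 1.14, over a range from −0.53 to 1.63 among 4 probe sets. ARF1, by a single dim probe set, counted as lower with 4 miRNAs (17.3 against 230.6) and on day 7 of the control (32.9 against 230.6), with the lower signals under the array median and no fold given. CYRIA, a RAC1 binder that restrains the complex, counted as higher on day 7 (222.6 against 54.5), with the day 5 signal under the array median and no fold given. The list's median was 0.44 with 4 miRNAs and 0.19 with 2, against −0.15 and −0.16 over all genes.

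Upstream, of 15 expressed RAC GTPases and exchange factors, 0 were at least 2-fold higher in either miRNA comparison. Over all genes 8.03% were with 4 miRNAs and 8.11% with 2, so for a list this short nothing is read from the count. DOCK1, an exchange factor for RAC1, was lower with 2 miRNAs (−1.10, 163 against 384.7) by the brighter of its expressed probe sets and at 0.08 by the other. The list's median was −0.08 with 4 miRNAs and −0.02 with 2. RAC1 itself has 4 expressed probe sets and stayed within 2-fold.

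Downstream, of the 9 expressed genes of the Arp2/3 complex by the probe set of highest mean, 0 were at least 2-fold apart with 4 miRNAs and 1 was lower with 2, ARPC5L at −1.01, whose 4 probe sets ran from −1.01 to −0.04. Over all genes by the same rule 8.03% were higher and 6.7% lower with 4 miRNAs, and 8.11% and 6.37% with 2. For a list this short nothing is read from the counts. ACTR3, named after its values were seen, was at −0.17 with 4 miRNAs and −0.19 with 2 by that rule, but its 5 expressed probe sets reached up to 1.99 and 1.87. With the median over probe sets 1 Arp2/3 gene was at least 2-fold higher in each miRNA comparison, and 0 were lower with 2 miRNAs. ACTR3B was lower on day 7 of the control (−1.03, 270.9 against 584.7) by the brighter of its expressed probe sets and at −0.39 by the other. The list's median was −0.17 with 4 miRNAs and −0.43 with 2, and 0.18 on day 7, against −0.15, −0.16 and −0.01 over all genes.

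Among 6 expressed inhibitors of Arp2/3 and factors that take branches apart, ARPIN, an Arp2/3 inhibitor controlled by RAC1, was higher with 4 miRNAs (1.34) and 2 miRNAs (1.84) by its brightest probe set, while its lowest was at −1.25 and −0.12 in the same order. CORO2A, a coronin, was higher with 4 miRNAs (1.38) by its brighter probe set and at 0.49 by the other. CORO7, the coronin of the Golgi, counted as lower with 4 (8.5 against 174.5) and 2 miRNAs (61.4 against 174.5), at miRNA signals under the array median, so no fold is given. Of the 6, 2 were at least 2-fold higher and 1 lower with 4 miRNAs, and 1 and 1 with 2. Over all genes 8.03% were higher and 6.7% lower with 4 miRNAs, and 8.11% and 6.37% with 2. For a list this short nothing is read from the counts. The list median was 0.09 with 4 miRNAs and 0.03 with 2, against −0.15 and −0.16 over all genes.

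Of 11 other expressed Arp2/3 activators, which include WASL, CTTN and the WASH complex, 0 were at least 2-fold apart in either miRNA comparison, with medians of 0.14 and 0.04. Over all genes 8.03% were higher and 6.7% lower with 4 miRNAs, and 8.11% and 6.37% with 2, so nothing is read from the count. WAS, the blood cell member, counted as higher on day 7 by a dim probe set (147.8 against 53.4), with the day 5 signal under the array median. Of the 2 WAVE paralogs of blood cells, NCKAP1L had no expressed probe set, and ABI3 was at −0.45 with 4 miRNAs and −0.18 with 2.

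For linear filament builders and actin handling genes, the shares over all genes were 8.03% higher and 6.7% lower with 4 miRNAs. With 2 miRNAs they were 8.11% and 6.37%. Of 11 expressed formins and Ena/VASP genes, the formin DAAM1 was higher with 4 (1.18) and 2 miRNAs (1.02) by its brightest probe set. Its lowest was at 0.17 and −0.20. DIAPH1 was lower with 2 miRNAs (−1.04) by its brightest probe set, and its 3 expressed probe sets ran from −1.04 to −0.36. The dim DAAM2 (49.6 against 131.3) was also lower with 2. The list's median was −0.27 with 4 miRNAs and −0.30 with 2, against −0.15 and −0.16 over all genes. Of 16 expressed actin, profilin, cofilin and capping genes, CAPZA2, a subunit of the protein that caps filament ends, was at least 2-fold higher in both. CAPZA2 had 11679 with 4 miRNAs and 12642 with 2, against 3603 on day 7 and 2986 on day 5 of the control, and its lower probe set was past 2-fold as well, at 1.26 with 4 miRNAs and 1.15 with 2. Like ABI1, it was higher by each of its expressed probe sets.

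**Figure D4:**
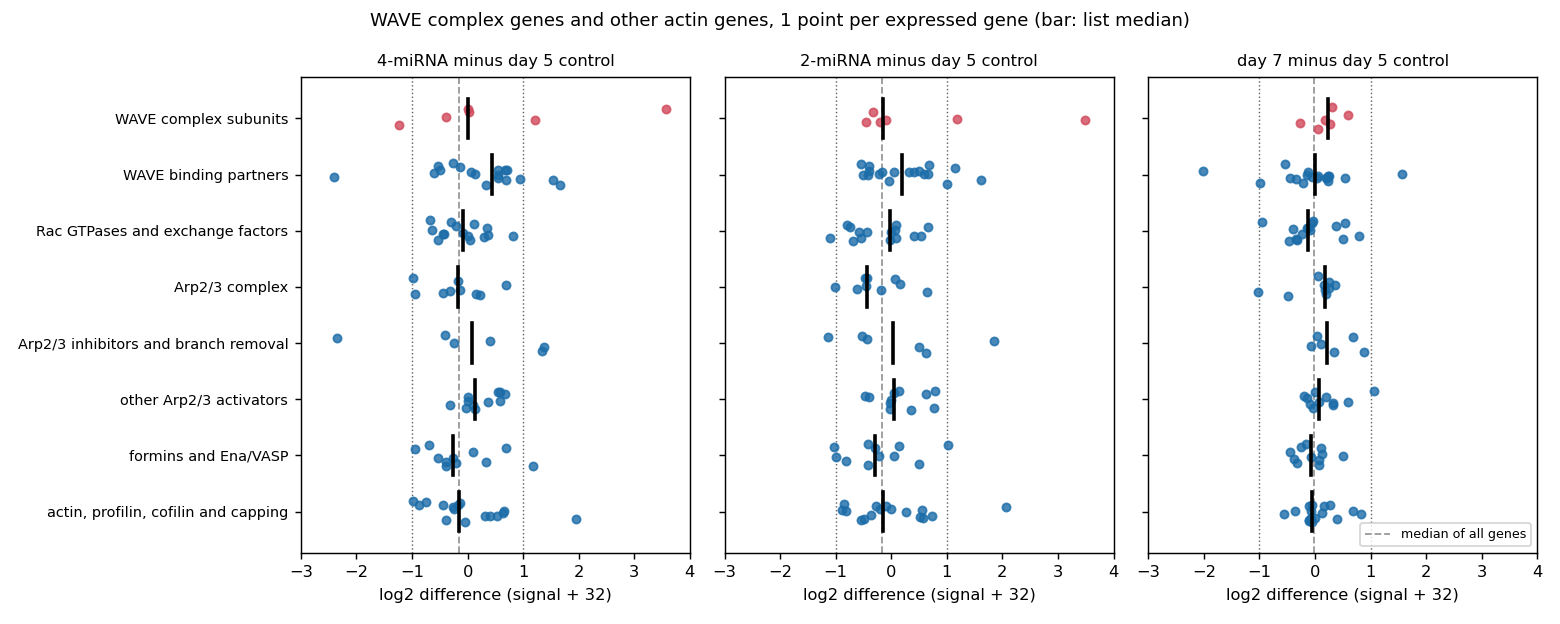
Log2 difference (scaled signal plus 32) of each expressed gene, by its brightest expressed probe set, in the WAVE complex (red) and 7 other lists of actin genes (blue), for 4-miRNA minus day 5 control, 2-miRNA minus day 5 control and day 7 minus day 5 control; black bars are list medians, the dashed line is the median of all 12264 genes and dotted lines mark 2-fold. NCKAP1 at 3.57 and 3.49 is the farthest point from 0 in the first 2 panels.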

How the data were processed

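RNA of T84 cells was measured on Affymetrix U133 Plus 2.0 arrays. The deposited table holds a linear intensity for each of 54675 probe sets on 4 arrays, which the authors made with MAS5 according to the submitters' processing notes. No version or scaling target is stated there. Column levels differed, so a factor per array set the trimmed mean to 500 (2% left out at each end), and 32 was added before log2, which understates differences of dim genes. Names came from the platform annotation, updated through RefSeq gene IDs (41043 matched, GRCh38.p14, names only): 41097 probe sets had 1 symbol, 1801 several and 11777 none here. A probe set was called expressed when its mean log2 reached the median of all probe sets or any array's 75th percentile. Where 1 value stands for a gene, the expressed probe set of highest mean was used. Named were all members, listed genes past 2-fold (up to 4 a list), the 5 profiles nearest to NCKAP1, GAPDH and ACTB. Members, lists and rules were chosen with earlier results of these data known. With 1 array per group the spread between samples is unknown. Alternatives were other pseudocounts, scalings, filters, the day 7 control and the median over probe sets. Printed sequences are from RefSeq. Python 3.11.15, pandas 2.3.3 and NumPy 2.4.6 were used, and the scaling step was tested on simulated data.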

Additional observations from a re-analysis of the deposited data

How the results depend on the processing

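No paired analysis was possible because each group holds 1 array. With no replicates, a member's difference was taken as moved when it changed by more than the SD of a single probe set in that comparison (0.34 to 0.64), estimated from genes with 2 expressed probe sets. Of 318 recomputed member differences 6 moved by more than that, all with the day 7 control in place of the day 5 control. That control was used for 11 member differences in each miRNA comparison. A change of filter leaves each difference as it was, so those among the 318 could not move. Among the 6 that moved, WASF2 224563_at changed sign with 4 miRNAs (−0.74 to 0.86) and with 2 (−0.30 to 1.30). WASF2 221725_at did so with 4 miRNAs (0.67 to −0.15). No difference that was past 2-fold against the day 5 control changed sign. The difference of NCKAP1 207738_s_at from the day 5 control was between 3.51 and 3.85 with 4 miRNAs and between 3.43 and 3.67 with 2 over the other settings, and 3.39 and 3.31 from the day 7 control. With no filter, the member probe sets at least 2-fold higher numbered 5 with 4 miRNAs, 5 with 2 miRNAs and 1 on day 7, and 2 were lower on day 7. With the 70th percentile filter 0 were lower with 4 miRNAs and 0 on day 7. Scaling shifts the whole array: the median over all expressed probe sets, −0.11 with 4 miRNAs and −0.10 with 2, became 0.15 and 0.07 with median scaling. The share of higher among all probe sets past 2-fold, 58.2% and 61.1%, became 82.7% and 78.9% there and 70.7% and 70.3% with running-median centring; between the miRNA arrays it was 41.7%, against 53.0% and 53.4%. Of 88 list counts recomputed with the median over probe sets 12 moved by over 1.5 times; the higher calls among Arp2/3 inhibitors and among formins became 0 in both miRNA comparisons, and 1 Arp2/3 gene and 1 of the RAC list became higher in each. No detection calls were used, so probe sets near the array median have no measured floor.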

Other observations

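NCKAP1 207738_s_at belonged to a one-sided set of large differences. Past 8-fold from the day 5 control (a log2 difference of at least 3 in size), 31 expressed probe sets were higher and 3 lower with 4 miRNAs, and 39 were higher and 0 lower with 2. Between the controls 4 were higher and 1 lower on day 7. Of the 26 higher with 4 miRNAs whose gene had another expressed probe set, 19 had no other probe set at least 2-fold higher, and with 2 miRNAs this was so for 21 of 32. Against the day 7 control 11 were higher and 0 lower with 4 miRNAs, and 20 and 1 with 2. The reason for these counts was not tested.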
